A study of Mus musculus with 4 samples.

Results

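The 9 genes described here are interferon response genes, namely Isg15, Ifit1, Ifit3, Irf7, Bst2, Ifitm3, Ifi27l2a, Ifi27 and Irf1. They are the genes of those symbols in the deposited gene list, 9 of 32285 in all, and they were picked with their levels in these data in view, so the levels below are a description and carry no test. Thyroid tissue of C57 (C57BL/6) mice was taken on postnatal days 5, 10, 20 and 30, digested with collagenase and dispase, and profiled by droplet single-cell RNA sequencing, in which transcripts are counted by unique molecular identifiers (UMIs) under the barcode of their droplet. Cells of 10 mice were pooled into 1 library for each age, so an age has no replicate and the spread between mice cannot be seen. The labels name no treatment, genotype or sex, and all 4 libraries share strain and tissue. The paper's methods name more than 1 version of the library kit and do not say which library had which. Ages could thus be set side by side only as single libraries, without a test.

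Interferons are secreted proteins that put neighbouring cells into an antiviral state. Type I interferons (interferon alpha and beta) act through the receptor chains Ifnar1 and Ifnar2, and type II interferon (interferon gamma, encoded by Ifng) acts through Ifngr1 and Ifngr2. Both receptors use Jak kinases, which switch on transcription factors. Type I signals act mainly through the interferon-stimulated response element (ISRE), where Stat2 and Irf9 bind, and type II signals through the gamma-activated site (GAS). In the thyroid, interferon response genes are best known from autoimmune and viral thyroiditis, and many of them are also transcribed at a basal level in healthy endothelium and myeloid cells.

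The members have different roles. Isg15 is a ubiquitin-like protein that is attached to other proteins, and Ifit1 and Ifit3 bind viral RNA or scaffold the proteins that do. Irf7 is the transcription factor that amplifies type I interferon production. Bst2 (tetherin) holds enveloped virus particles at the cell surface, and Ifitm3 blocks the fusion of viruses in endosomes. Ifi27l2a and Ifi27 encode small hydrophobic membrane proteins of 1 family, and Irf1 is a transcription factor induced by interferon gamma and by other inflammatory signals.

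Per library there were 1745460 to 2258644 barcodes with 54921806 to 89039113 UMIs, and 3012 to 11406 cells per library passed the filters, with medians of 2553.5 to 4250.0 UMIs. Cells were clustered without the interferon lists, and clusters were named by marker genes as "X-like" classes, of which 54 combinations of class and library held at least 50 cells and are described. The markers of thyroid follicular cells (TFC) reached 35661 to 58755 counts per 1000000 UMIs in TFC-like cells and 342 to 1301 in endothelial-like cells, and thymocyte-like cells were present as well, with 2878 cells in the library labelled day 20. Before any difference between ages is read, the labels need a caution: H19, an imprinted RNA of immature tissue, had 62.8, 523, 69.9 and 1933 counts per 1000000 UMIs in fibroblast-like cells from the libraries labelled day 5, 10, 20 and 30, and Igf2, a growth factor gene beside it (19.02, 181, 24.4 and 694) and Dlk1 (38.3, 105, 38.6 and 437) had the same order. In the deposited list of cell barcodes, the libraries labelled day 5, 10, 20 and 30 carry the group numbers 4, 2, 3 and 1, and in the order of those numbers H19 ran from 1933 through 523 and 69.9 to 62.8. The paper's methods report the most kept cells for day 30. Here the library labelled day 5 kept the most, 11406, and that labelled day 30 the fewest, 3012. Whether the labels of the libraries labelled day 5 and 30 are exchanged was not tested. Each library is therefore named as labelled, any direction with age depends on those labels, and where it matters the values are also given in the order of the group numbers. Of the cell barcodes in the libraries labelled day 10, 20 and 30, 97.4% to 98.8% also carried a UMI in each of the other 2 matrices, with medians of 8 to 12 UMIs, against 33.6% to 49.9% and a median of 1 UMI for pairs with the library labelled day 5, and 12 to 30 barcodes per pair were listed as cells in both libraries. The library labelled day 5 stood apart in this, and an age difference against it cannot be told apart from a difference between libraries.

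A level below is the number of UMIs of a gene per 1000000 UMIs of a class in a library (CPM), with its exact 95% Poisson interval where given. Shares of cells have exact Clopper-Pearson intervals. Both cover counting error only, and not mice, libraries or UMIs that cluster in a few cells. RNA that floats free in the suspension enters every droplet, so the members were also measured in droplets with 10 to 100 UMIs of the same library, called free RNA.

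The promoters of the members are shown first, because they differ in the interferon-responsive motifs that they hold. The RefSeq table of promoters, on build GRCm38.p6, held 7 of the 9 members. The 250 bases before the start of Isg15 (chr4:156200819-156201068, minus strand), Ifit1 (chr19:34640639-34640888, plus strand), Ifit3 (chr19:34583279-34583528, plus strand) and Bst2 (chr8:71537473-71537722, minus strand) are given 5′ to 3′ on the strand of the gene, with every match to the ISRE core (GAAA, any 2 bases, GAAA) on either strand in capitals. The promoter of Irf1 (chr11:53769764-53770013, plus strand) is shown with its match to the GAS sequence TTCNNNGAA in capitals.
Isg15: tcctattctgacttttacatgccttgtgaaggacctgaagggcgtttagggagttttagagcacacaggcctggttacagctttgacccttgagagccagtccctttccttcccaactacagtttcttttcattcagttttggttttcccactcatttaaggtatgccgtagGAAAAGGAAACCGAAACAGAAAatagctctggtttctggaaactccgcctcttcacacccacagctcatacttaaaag
Ifit1: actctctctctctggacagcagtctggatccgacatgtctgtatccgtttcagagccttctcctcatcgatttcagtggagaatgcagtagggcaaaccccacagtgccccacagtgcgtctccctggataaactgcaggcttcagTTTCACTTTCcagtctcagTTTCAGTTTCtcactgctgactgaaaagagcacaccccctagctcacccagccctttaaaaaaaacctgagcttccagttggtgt
Ifit3: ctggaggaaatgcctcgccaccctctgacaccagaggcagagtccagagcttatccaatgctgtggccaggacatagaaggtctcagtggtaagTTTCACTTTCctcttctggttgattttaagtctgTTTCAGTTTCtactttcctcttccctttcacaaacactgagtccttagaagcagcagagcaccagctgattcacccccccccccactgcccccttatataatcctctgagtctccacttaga
Bst2: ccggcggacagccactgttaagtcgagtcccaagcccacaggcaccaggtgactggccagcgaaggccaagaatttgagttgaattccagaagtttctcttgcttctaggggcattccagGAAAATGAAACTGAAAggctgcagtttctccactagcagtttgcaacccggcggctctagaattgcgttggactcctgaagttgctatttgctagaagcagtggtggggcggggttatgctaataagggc
Irf1: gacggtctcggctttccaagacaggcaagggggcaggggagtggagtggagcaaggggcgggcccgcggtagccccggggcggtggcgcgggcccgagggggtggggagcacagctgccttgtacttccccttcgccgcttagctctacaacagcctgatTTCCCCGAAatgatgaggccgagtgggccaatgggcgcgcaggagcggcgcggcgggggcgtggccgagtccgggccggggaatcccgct

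In Isg15, 3 overlapping ISRE core matches formed 1 run from 78 to 57 bases before the start. Ifit1 had 2 separate matches, at 104 to 95 and 85 to 76 bases, and Ifit3 had 2 at 156 to 147 and 122 to 113 bases, all of them on the opposite strand. In Bst2, 2 overlapping matches covered 130 to 115 bases before the start, and a GAS match at 136 to 128 bases ran into them. Irf1 had a GAS match at 90 to 82 bases before its first annotated start and none of either motif before its second. The letters of either motif were not found in this window of Irf7 and Ifitm3. In all, 4 of the 7 genes held the ISRE core in a promoter, which 3.46% of all 27025 genes in the table did, and the GAS letters occurred in 8.13% of genes. Counted by promoter, the shares were 2.98% and 7.02% of 32851. Among the other lists, the ISRE core was found for 12 of 30 other type I response genes, 11 of 15 type II response genes and 11 of 20 of the interferon genes themselves, and for 0 of 16 immediate-early genes and 0 of 5 receptors. A match is a match of letters and not a measured binding site.

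**Figure D1:**
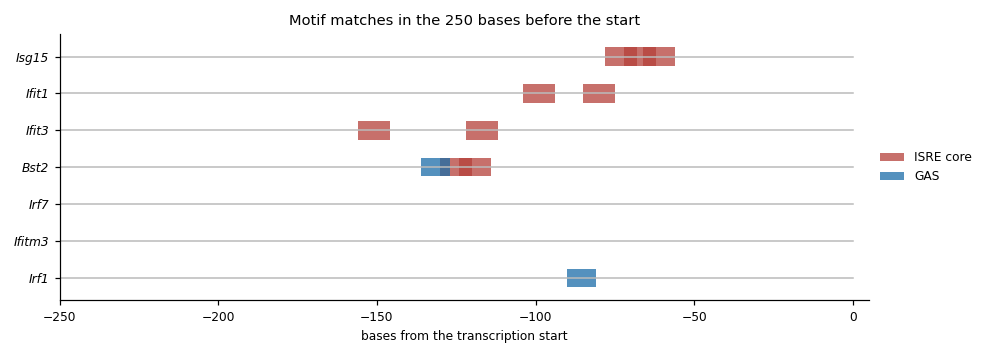
Matches to the ISRE core (red) and the GAS sequence (blue) in the 250 bases before the transcription start of 7 members, with the distance from the start in bases on the horizontal axis. Darker stretches are overlapping matches. The matches of Isg15, Ifit1, Ifit3, Bst2 and Irf1 lie between 156 and 57 bases before the start, and the lines of Irf7 and Ifitm3 carry none.

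Several members are neighbours in the genome (GRCm38, GENCODE). Ifit3 (chromosome 19, 34583531 to 34588731) and Ifit1 (34640871 to 34650009) lie 52140 bases apart on the plus strand. Ifi27 (chromosome 12, 103434211 to 103440239, plus strand) and Ifi27l2a (103442167 to 103443680, minus strand) lie 1928 bases apart, and Ifitm3 (141009586 to 141010770) and Irf7 (141262706 to 141266481) lie 251936 bases apart on the minus strand of chromosome 7. Isg15 is on chromosome 4 (156199424 to 156200818, minus strand), Bst2 on chromosome 8 (71534255 to 71537456, minus strand) and Irf1 on chromosome 11 (53770014 to 53778374, plus strand). All 9 are protein-coding. The assay reads the 3′ end of transcripts, and of the 50-base words in the last 500 bases, 14.9% of those of Ifit3 also occur in Ifit3b and 14.0% of those of Ifitm3 occur in Gm7676, Gm11951 or Gm45717, so the UMIs of these members are less certain. The share was under 1% for Isg15 (0.665%) and Ifi27l2a (0.483%) and 0 for the other members.

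The sources of interferon were looked at first. Of 21 interferon genes in the gene list, 7 had any UMI in a kept cell. Ifnb1, the gene of interferon beta, had 20 UMIs in all, and 18 of these lay in 6 of the 524 macrophage-like cells led by Ccl4 of the library labelled day 5. The other type I genes Ifnab, Ifnz, Ifna16, Ifna2 and Ifnk had 7, 5, 2, 1 and 1 UMIs, with at most 2 positive cells in a class and library. Ifng, the gene of interferon gamma, was found in far more cells and had 1316 UMIs. In natural killer-like cells it had 431, 675, 80.8 and 237 CPM across the libraries labelled day 5, 10, 20 and 30, and 36.1%, 57.1%, 8.15% and 19.8% of these cells held a UMI of it, against 0.146% of endothelial-like and 0.0756% of TFC-like cells within the library labelled day 5. The 7 natural killer markers summed to 5986, 4875, 939.6 and 2205 CPM in the same cells, lower like Ifng in the libraries labelled day 20 and 30, and their part in its levels was not tested. With each library clustered by itself, T cell markers scored above natural killer markers in the matching clusters of the libraries labelled day 5 and 30, and the cluster of that labelled day 20 stayed unnamed. Ifng is among the leading genes of the natural killer-like cluster, although it was not used for clustering. No cluster was named plasmacytoid dendritic-like, after the classical makers of type I interferon. With the library labelled day 5 clustered by itself, a macrophage-like cluster of 99 cells had the plasmacytoid dendritic markers Ly6d and Cox6a2 among its leading genes. Such cells may thus be present under another name.

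The receptor chain Ifnar2 lay above free RNA in endothelial-like and in TFC-like cells of every library. It had 189, 179, 204 and 155 CPM in endothelial-like cells and 162, 132, 170.2 and 142 in TFC-like cells from the libraries labelled day 5, 10, 20 and 30, beside 104, 69.7, 84.1 and 80.3 in free RNA. The other type I receptor chain, Ifnar1, had 40.6 to 72.8 CPM in endothelial-like cells and 11.5 to 20.2 in TFC-like cells, beside 12.4 to 23.2 in free RNA. In TFC-like cells it was above free RNA in the library labelled day 5 alone. Ifngr1 had 234 to 252 CPM in endothelial-like cells and 22.7 to 34.5 in TFC-like cells, the latter below free RNA (58.2 to 136) in each library, and reached 1314 in T-like cells led by Cd163l1 of the library labelled day 5. For Ifnar1 and Ifngr1 every endothelial-like library thus lay above every TFC-like one. Il10rb, a chain of the type III receptor, was highest in macrophage-like cells led by Pf4 (247 in the library labelled day 30).

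Of the transcription factors that carry the signal, Stat2 had 31.8 to 68.4 CPM in endothelial-like cells and 11.4 to 20.2 in TFC-like cells, beside 9.905 to 15.6 in free RNA. Irf9 had 53.5 to 78.98 and 32.1 to 37.8, beside 28.5 to 35.8, so that for both genes every endothelial-like library lay above every TFC-like one. Of the kinases, Jak1 was highest in natural killer-like cells from the library labelled day 10 (475) and Jak2 in innate lymphoid-like cells of that labelled day 20 (123). Of the 14 genes that sense nucleic acids or start interferon production, the 5 with the highest single levels had them in myeloid classes: Irf8 (924) and the RNA sensor Tlr3 (104) in dendritic-like cells, Irf5 (257) and the sensor Zbp1 (181) in monocyte-like cells, and the RNA sensor Tlr7 in macrophage-like cells led by Pf4 (90.5).

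Isg15, Ifit1, Ifit3 and Irf7 are 4 textbook targets of type I interferon, and their summed level was high over the libraries in endothelial-like and monocyte-like cells. In endothelial-like cells it was 592 (578 to 606) CPM for the library labelled day 5, 285 (268 to 302) in the one labelled day 10, 548 (511 to 587) in the one labelled day 20 and 217 (198 to 238) in the one labelled day 30. The order did not follow the labelled ages, and the 2 libraries with the higher sums were also those with the lower H19. In the order of the group numbers, the sums rose from library to library. In monocyte-like cells the sum was 452, 587 and 183 CPM across the libraries labelled day 5, 10 and 30, with 57 of the 228 UMIs of the library labelled day 10 in 1 cell. The highest single sum was that of neutrophil-like cells from the library labelled day 5, at 1116.5 (945 to 1310) CPM. In the libraries labelled day 10 and 30 these cells had 136 and 117. TFC-like cells had 47.4, 49.6, 108 and 73.9 CPM and B-like cells 71.7, 27.3, 45.5 and 16.7, beside 167, 125, 91.9 and 90.02 in free RNA. B-like cells were below free RNA in 4 libraries and TFC-like cells in 3, all but the one labelled day 20. That exception was lost with no upper UMI limit (62.4 CPM), with a lower limit of 1000 UMIs (90.0), with cells thinned to 1000 UMIs (77.9) and without the cell with most of these UMIs (86.9). A few TFC-like cells held many of these UMIs, with 10 of 47 in 1 cell from the library labelled day 20 and 28 of 52 in 1 cell from that labelled day 30.

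**Figure D2:**
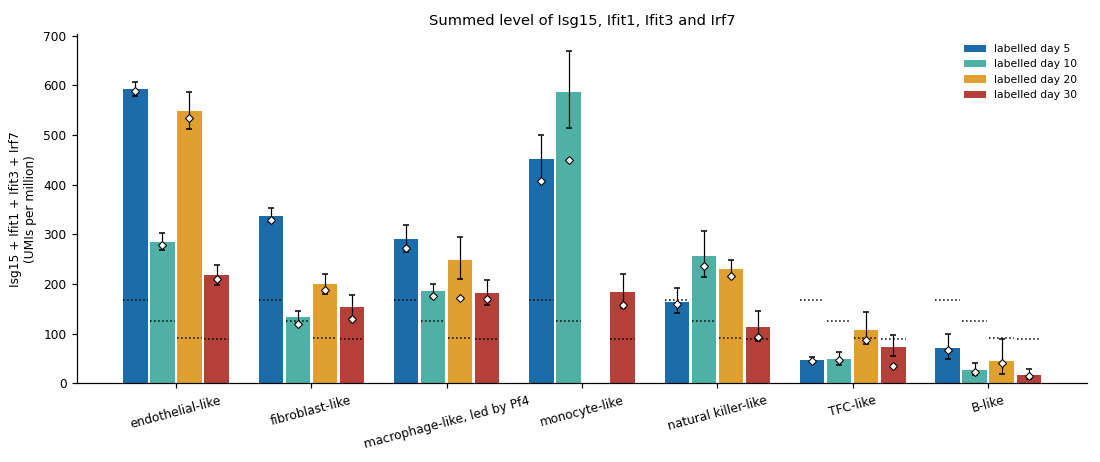
Summed level of Isg15, Ifit1, Ifit3 and Irf7 in CPM (vertical axis, from 0) in 7 classes, with 1 bar per library, exact 95% Poisson intervals as error bars and the free RNA of the same library as a dotted line. White diamonds give the level without the cell that held most of these UMIs. Endothelial-like cells stand at 592 and 548 in the libraries labelled day 5 and 20, and the diamond lies well below the bar in TFC-like cells from the library labelled day 30, where 1 cell held 28 of 52 UMIs.

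Isg15 was highest in endothelial-like cells when classes were ordered by the median over libraries. It had 260.5 (251 to 269.8) CPM for the library labelled day 5, 155 (143 to 168) in the one labelled day 10, 215 (192 to 239.6) in the one labelled day 20 and 122 (108 to 137) in the one labelled day 30, all above the 43.02 to 76.8 of free RNA. Schwann-like cells (median 137), monocyte-like cells (121) and natural killer-like cells (113) came next, and the ranges of these neighbours overlapped. Natural killer-like cells had 77.5, 164, 149 and 53.3 CPM, with the higher values in the libraries labelled day 10 and 20. Fibroblast-like cells had 153, 60.6, 81.1 and 70.3, and macrophage-like cells led by Pf4 had 121, 77.9, 80.7 and 59.98, both highest in the library labelled day 5. TFC-like cells had 19.9, 17.6, 22.99 and 38.4, and B-like cells had 10.5, 9.48, 5.68 and 4.78, below free RNA in every library. The highest single level was that of neutrophil-like cells from the library labelled day 5, with 669.9 (539 to 823) against 50.9 and 43.8 in the libraries labelled day 10 and 30.

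Shares of cells were compared at equal depth. Thinned to 1000 UMIs per cell, 19.1%, 11.2%, 16.5% and 11.4% of endothelial-like cells held an Isg15 UMI in the libraries labelled day 5, 10, 20 and 30, against 36.1%, 30.1%, 33.6% and 29.9% before thinning. In B-like cells the thinned shares were 0.8197%, 0.6897%, 0% and 0.99% and the unthinned ones 1.6%, 1.701%, 2% and 1.48%. Median depths before thinning were 2099 to 5379 UMIs in endothelial-like cells, 1698 to 3626 in B-like cells and 5510 to 6938 in TFC-like cells. In TFC-like cells 1.44%, 2.73%, 0% and 1.63% of thinned cells held an Isg15 UMI (8.77%, 7.46%, 7.59% and 7.26% unthinned). In the library labelled day 20, 0 of 77 cells held one at 1000 UMIs, which allows up to 4.68% at that depth only, since 6 of the 79 cells held one before thinning. The intervals of the thinned shares of TFC-like and B-like cells overlapped in every library.

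Ifit1 and Ifit3 shared their order of libraries in endothelial-like and in fibroblast-like cells. Ifit1 had 78.6, 35.8, 102 and 27.7 CPM in endothelial-like cells from the libraries labelled day 5, 10, 20 and 30, and 75.3, 24.1, 43.96 and 31.1 in fibroblast-like cells. Ifit3 had 84.8, 35.8, 89.4 and 23.5 and 60.5, 23.6, 36.6 and 26.7 in the same classes. Free RNA had 16.9, 14.1, 12.2 and 6.38 CPM of Ifit1 and 23.1, 19.05, 11.2 and 8.25 of Ifit3, below both classes in each library. In endothelial-like cells both were high in the libraries labelled day 5 and 20, and in fibroblast-like cells highest in the one labelled day 5. In B-like cells no UMI of Ifit1 was found in any library, which by the Poisson interval allows up to 7.77, 4.37, 20.97 and 4.41 CPM. Monocyte-like cells had 27.96 and 64.4 CPM of Ifit1 in the libraries labelled day 5 and 10, and no UMI in the one labelled day 30. In macrophage-like cells led by Pf4, Ifit3 stayed at 42.1 to 52.6 CPM, with overlapping intervals. Schwann-like cells had 95.3 and 53.02 CPM of Ifit3 in the libraries labelled day 5 and 10, which alone held at least 50 of them.

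Irf7 was highest in monocyte-like cells, with 271 (238 to 309), 268 (219 to 325) and 150.4 (121 to 184) CPM across the libraries labelled day 5, 10 and 30. The intervals of the first pair overlap and the third lies below both. Endothelial-like cells followed with 168, 58.5, 143 and 44.3 CPM, higher in the libraries labelled day 5 and 20. Macrophage-like cells led by Pf4 had 93.5, 45.8, 96.5 and 61.8. Without 1 of the 83 cells, the level for the library labelled day 20 was 67.7, still above the 61.8 of that labelled day 30 in point value. The size of the gap thus rests largely on that cell. Thinned to 1000 UMIs per cell, Irf7 had 60.2 and 28.4 CPM in these cells from the libraries labelled day 20 and 30. Fibroblast-like cells had 48.5, 24.6, 37.6 and 25.8 and TFC-like cells 11.96, 17.6, 20.7 and 24.2, beside 49.96, 27.05, 25.4 and 18.4 in free RNA.

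**Figure D3:**
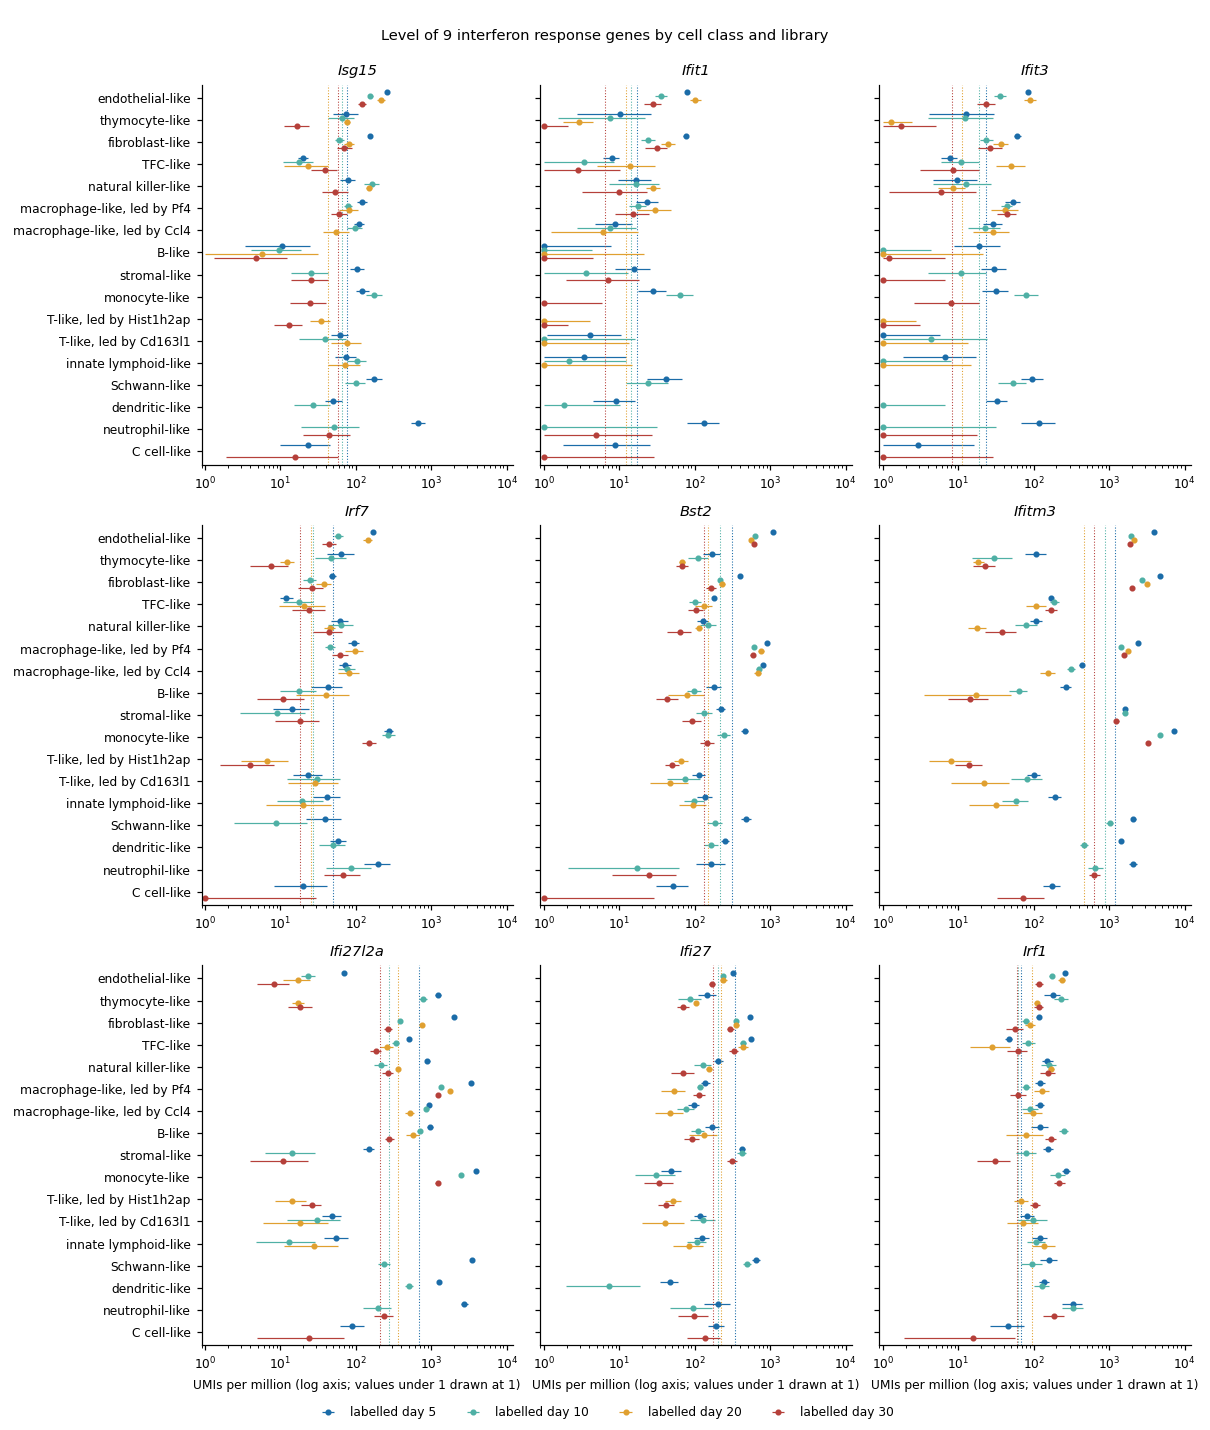
Level of the 9 members in CPM (horizontal log axis, values under 1 drawn at 1) in each class with at least 50 cells, with 1 point per library, exact 95% Poisson intervals as lines and the free RNA of each library as a dotted line. Bst2 lies at 552 or more in endothelial-like and macrophage-like cells of every library, and Ifi27l2a spans from 8.31 in endothelial-like cells to 3908 in monocyte-like cells.

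Of the membrane proteins, Bst2 was highest in both macrophage-like clusters and in endothelial-like cells, and Ifitm3 in monocyte-like, fibroblast-like and endothelial-like cells. Bst2 had 1082, 619.5, 552 and 608 CPM in endothelial-like cells, 895, 614, 756 and 583 in macrophage-like cells led by Pf4, and 807, 699 and 684 in those led by Ccl4 of the libraries labelled day 5, 10 and 20. The lowest endothelial-like value lay above the highest of the next class in the order, Schwann-like cells with 474 and 183. TFC-like cells had 181, 102, 131 and 102 CPM, below the free RNA of 312, 217, 148 and 132 in each library. Neutrophil-like cells were the lowest class by the median over libraries, with 164, 16.98 and 24.3 in the libraries labelled day 5, 10 and 30, the second of them at 59.7 with doublets kept.

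Ifitm3 was highest in monocyte-like cells (7180.4, 4744 and 3244 CPM across the libraries labelled day 5, 10 and 30), followed by fibroblast-like cells (4778, 2719.5, 3206 and 2029.5) and endothelial-like cells (3876, 1953, 2107 and 1898). In each of these classes the library labelled day 5 was highest. Macrophage-like cells led by Pf4 had 2414, 1441, 1756 and 1563 CPM, and those led by Ccl4 431, 312 and 152, so the 2 clusters stood apart for Ifitm3 in every shared library, that led by Ccl4 below free RNA and that led by Pf4 above it. TFC-like cells had 171, 188, 108 and 171 and B-like cells 266, 62.8, 17.1 and 14.3, beside 1185, 870.1, 458 and 626 in free RNA. The level of B-like cells in the library labelled day 5 was 451 with doublets kept and 537 with that library clustered by itself. Thinned to 1000 UMIs, 92.98% to 100% of monocyte-like cells held an Ifitm3 UMI (93.5% to 98.9% unthinned) and 77.4% to 95.5% of endothelial-like cells did (90.7% to 96.2%), against 1.48% to 10.2% of B-like cells (5.91% to 16.4%).

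Ifi27l2a and its neighbour Ifi27 led in different classes. Ifi27l2a was highest in monocyte-like cells (3908, 2450.4 and 1208 CPM across the libraries labelled day 5, 10 and 30), and macrophage-like cells led by Pf4 had 3347, 1325, 1784 and 1215. Endothelial-like cells, the leading class for Isg15 and Ifit1, had 69.1, 23.2, 16.9 and 8.31, below the free RNA of 695, 277, 357 and 209. Schwann-like cells came second for Ifi27l2a by the median over libraries, with 3455 and 236 in the libraries labelled day 5 and 10. Ifi27 was highest in Schwann-like cells (647 and 493) and TFC-like cells. The latter had 555 (539 to 570.4), 439 (402 to 479), 437 (377 to 504) and 326 (285 to 371), and monocyte-like cells had 30.9 to 48.9 CPM of Ifi27. In TFC-like cells Ifi27 lay above free RNA, 345, 202, 220.5 and 173, in all 4 libraries. Stromal-like cells (315 to 426) and fibroblast-like cells (294 to 539) overlapped with them. Over 54 combinations of class and library the Pearson correlation of the neighbours was -0.04 on log2 of CPM plus 10, a description only, since the points share libraries and classes.

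Ifi27l2a also differed widely between libraries inside a class. Thymocyte-like cells had 1236, 776, 17.2 and 18.3 CPM across the libraries labelled day 5, 10, 20 and 30. The cluster led by Ccr9 held 131 of the 148 such cells of the library labelled day 5, while that labelled day 20 held 1423 of that cluster and 1273 of the cluster led by Rag1, and within the former the levels were 1247, 779.6, 22.5 and 19.2. The summed thymocyte markers were at 324, 238, 3296 and 4257 CPM in these cells, with 1 of 6 markers at 10 CPM or more in each of the first pair of libraries, and their part in the difference was not tested. Schwann-like cells had 3455 and 236 CPM of Ifi27l2a in the libraries labelled day 5 and 10, beside 18756 and 5779.5 CPM of the summed Schwann markers, whose part was not tested. Dendritic-like cells had 1273 and 509, and fibroblast-like cells 1999.7, 385, 741 and 266 in the 4 libraries. In fibroblast-like cells 62.8%, 22.7%, 36.5% and 15% of thinned cells held a UMI of it (79.2%, 49.4%, 70.1% and 38.2% unthinned), and in endothelial-like cells 4.69%, 1.83%, 1.37% and 1.01% did (11.3%, 5.26%, 5.01% and 3.09%).

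Irf1, the transcription factor, was highest in neutrophil-like, monocyte-like and endothelial-like cells. Neutrophil-like cells had 328, 331 and 185 CPM and monocyte-like cells 269, 209 and 218 in the libraries labelled day 5, 10 and 30, and endothelial-like cells had 261, 174, 236 and 119 in the 4 libraries. Natural killer-like cells stayed at 152 to 169, and B-like cells had 120.1, 250, 79.6 and 169.7. Macrophage-like cells led by Pf4 (62.7 to 128) and by Ccl4 (89.2 to 119.9) were lower in the order. TFC-like cells had 46.6, 84.8, 27.6 and 61.1, beside 68.6, 62.5, 93.4 and 59.6 in free RNA. Among them the cluster led by Gdf15, a stress-induced cytokine gene, had 138 (121 to 157) and 174 (134 to 223) in the libraries labelled day 5 and 10, against 25.1 (21.6 to 29.04) and 44.9 (31.6 to 61.9) in that led by Tg, the thyroglobulin gene.

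In the comparison of the first and last labelled ages, most members tested were lower in the library labelled day 30 in endothelial-like, monocyte-like and neutrophil-like cells. A gene is counted as lower or higher when its level differed at least 2-fold after 0.5 UMI was added to each sum. Only genes with a mean of at least 10 CPM are counted, and the log2 ratios below hold the same addition. Without it, Bst2 in natural killer-like cells (126.85 and 63.161 CPM) and Ifit1 in stromal-like cells (15.419 and 7.1534) were past 2-fold as well. The members were chosen on these libraries, so the share of all genes that passed the same rule is printed beside each count and nothing is read from it. In endothelial-like cells 7 of 9 members were lower (3.09% of all genes), in fibroblast-like cells 7 of 9 (3.76%), in macrophage-like cells led by Pf4 2 of 9 (3.41%) and in monocyte-like cells 6 of 9 (4.19%). In neutrophil-like cells 8 of 9 were lower (20.4%), in natural killer-like cells 3 of 8 (10.2%), in B-like cells 5 of 7 (8.83%) and in stromal-like cells 5 of 9 (7.91%). Some of these members lay below free RNA in point value in both libraries. They include Ifit3, Irf7, Bst2 and Ifitm3 in B-like and Ifi27 and Ifitm3 in natural killer-like cells. Ifi27 and Bst2 in neutrophil-like and Ifi27l2a and Bst2 in stromal-like cells are also among them. Free RNA of these genes was also lower in the library labelled day 30, and its part was not tested. In thymocyte-like cells 6 of 7 were lower (10.7%), but their summed thymocyte markers stood at 324 CPM (day 5 by label) and 4257 CPM (day 30 by label), and the former library gave no thymocyte-like cluster by itself. In C cell-like cells, 79 and 55 in number, 5 of 7 were lower (21%). Of these Irf7, with 7 UMIs and none, is not past 2-fold against the floor of 3 UMIs. All 5 lay below free RNA in point value in both libraries, as did Ifi27, Isg15, Bst2 and Ifitm3 in thymocyte-like cells. The part of free RNA in these calls was not tested. In TFC-like cells 1 of 7 was lower (2.44%) and 1 of 7 higher (5.75%), but with no upper UMI limit 2 of 7 were lower (1.37%) and 0 higher (5.54%). Thinned to 1000 UMIs per cell, the count was 4 of 9 in fibroblast-like (7.34% of all genes) and 3 of 7 in stromal-like cells (9.89%). In natural killer-like cells it was 6 of 9 with doublets kept (12.2%) and 5 of 8 with a mitochondrial limit of 5% (9.62%). Immediate-early genes, which rise on tissue dissociation among other signals, were lower too in some classes: 17 of 18 were at least 2-fold lower in stromal-like cells (14660 and 3088.5 CPM in sum), 16 of 18 in C cell-like, 8 of 18 in endothelial-like and 7 of 18 in neutrophil-like cells. Their part was not tested. With 1 library for each age these folds have no replicate check.

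In endothelial-like cells Ifi27l2a differed most, with a log2 ratio of day 30 over day 5 of -3.02 (-3.82 to -2.39), the counting interval in parentheses, at levels below free RNA in both libraries. Irf7 followed with -1.92 (-2.23 to -1.63), Ifit3 with -1.84 (-2.29 to -1.44) and Ifit1 with -1.49 (-1.91 to -1.13). Isg15 (-1.09), Irf1 (-1.14) and Ifitm3 (-1.03) lay just past the 2-fold line, and Ifi27 (-0.94) and Bst2 (-0.83) just short of it, while the median over all genes was 0.05. In fibroblast-like cells the ratio of Ifi27l2a was -2.91 (-3.08 to -2.74), and those of the other 8 members lay between -1.28 (Bst2) and -0.87 (Ifi27), beside a median of 0.13 over all genes. In macrophage-like cells led by Pf4 it was -1.46 for Ifi27l2a and -1.01 for Isg15, and between -0.95 (Irf1) and -0.26 (Ifit3) for the rest.

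The other libraries do not place the endothelial-like difference on a line with labelled age. In the order of the group numbers, Isg15 (122, 155, 215 and 260.5 CPM) and Irf7 (44.3, 58.5, 143 and 168) rose at each step, as did Ifitm3, Irf1 and Ifi27 in point value. The counting intervals stayed apart at all steps for Isg15 alone. They overlapped between the middle pair of libraries (days 10 and 20 by label) for Ifi27 (234 and 239), and Ifitm3, Irf1 and Irf7 had overlapping steps as well. Ifit1, Ifit3, Bst2 and Ifi27l2a did not rise at each step. Against the library labelled day 5, 4 of 9 members were at least 2-fold lower in the one labelled day 10 (1.51% of all genes), and 1, Ifi27l2a, in the one labelled day 20 (2.53%). There Ifit1 and Ifit3 had log2 ratios of 0.37 and 0.08. The library labelled day 10 was lower than that labelled day 20 for Ifit1 (-1.505), Ifit3 (-1.32) and Irf7 (-1.29). Bst2 and Ifitm3 differed in that only the library labelled day 5 was high. Between the libraries labelled day 10 and 20, the one labelled day 10 was at least 2-fold lower for 3 of 9 members in endothelial-like cells (2.69% of all genes), 0 of 9 in fibroblast-like cells (1.98%), 1 of 9 in macrophage-like cells led by Pf4 (2.88%), 0 of 9 in natural killer-like cells (7.74%) and 1 of 6 in B-like cells (9.65%). In the same order of classes it was at least 2-fold higher for 0 of 9 (2.18%), 0 of 9 (2.09%), 1 of 9 (2.74%), 1 of 9 (10%) and 2 of 6 (9.15%). In TFC-like cells 1 of 8 was lower (6.04%) and 1 of 8 higher (4.69%). These comparisons share libraries, so the values are given side by side.

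**Figure D4:**
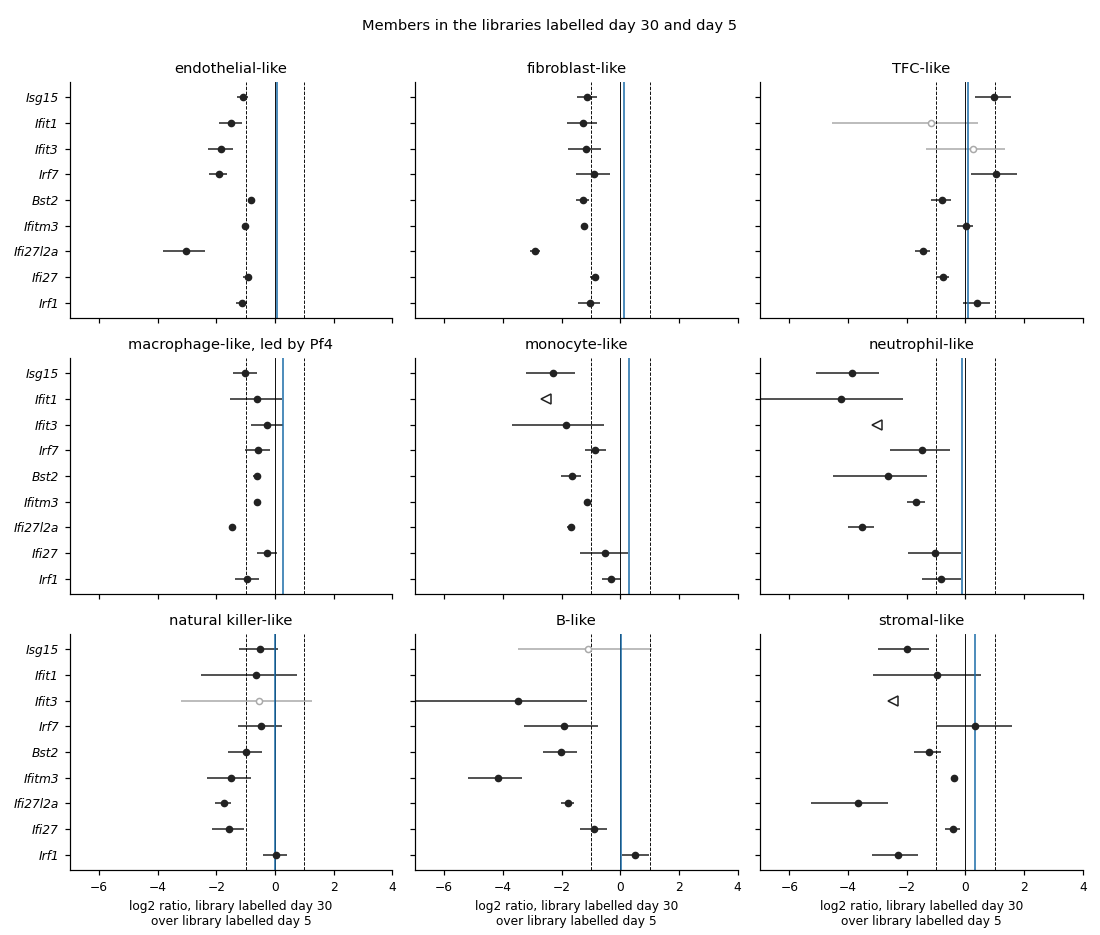
Log2 ratio of each member in the library labelled day 30 over that labelled day 5 (horizontal axis) in 9 classes, with exact 95% counting intervals. Dashed lines mark 2-fold, the blue line is the median of all genes with at least 10 CPM, grey open circles are members below that level, and open triangles pointing left are bounds for members with no UMI in the library labelled day 30. Most points lie left of 0, and among those on the right are Isg15 (0.97) and Irf7 (1.05) of TFC-like cells and Irf1 (0.49) of B-like cells.

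Monocyte-like and neutrophil-like cells had wide ratios on few UMIs. In monocyte-like cells Isg15 was at -2.28 (-3.21 to -1.53), and Ifit1, with 24 UMIs and none, was at least 5.76-fold lower in the library labelled day 30, taking 3 UMIs as the floor of that library. Irf7 (-0.85) and Irf1 (-0.30) differed less. In neutrophil-like cells Isg15 was at -3.87 (-5.11 to -2.95) and Ifi27l2a at -3.54, and Ifit3, with 16 UMIs and none, was at least 8.16-fold lower. In stromal-like cells Ifit3, with 29 UMIs and none, was at least 5.56-fold lower.

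Neutrophil-like cells from the library labelled day 5 also carried more RNA of other classes. The neutrophil-like cells had 1161, 169.8 and 43.8 CPM of the summed endothelial markers in the libraries labelled day 5, 10 and 30, with 9, 7 and 1 of 10 at 10 CPM or more, and 1786, 450 and 409 of the TFC markers. Neutrophil markers themselves summed to 115300 to 150990. The part of this RNA in the levels of Isg15, Ifit1 and Ifit3 was not tested. In the library labelled day 5, 59 of the 97 cells (60.8%) held a UMI of Isg15, Ifit1, Ifit3 or Irf7, with 12.7% of these UMIs in the highest cell.

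In TFC-like cells, the hormone-producing epithelium, the ratios of the low members rested on few cells. Isg15 had 38.4 CPM for the library labelled day 30 and 19.9 in the one labelled day 5, a log2 ratio of 0.97 (0.31 to 1.54), and Irf7 had 24.2 and 11.96, a ratio of 1.05 (0.18 to 1.76). A single cell held 28 of the 52 UMIs of Isg15, Ifit1, Ifit3 and Irf7 in the library labelled day 30. Without the cell with most of these UMIs in each library the ratios were -0.33 and 0.19, with 14.4 CPM of Isg15 and 12.97 of Irf7 in the library labelled day 30, and 0 of 7 members were 2-fold higher (5.75% of all genes) and 2 of 7 lower (2.5%). With no upper UMI limit, that library had 16.4 CPM of Isg15 and 14.1 of Irf7. With libraries clustered alone, that limit and doublet removal left 79 of 483 cells of its TFC-like cluster led by Tg. In the library labelled day 5 they left 1169 of 1669. With all kept cells, Ifi27l2a, with 4452 and 129 UMIs, was at -1.45 (-1.72 to -1.20). Its levels of 502 and 183 CPM lay below free RNA in point value in both libraries (695 and 209), and the part of free RNA was not tested. Ifitm3 was at 0.00 (-0.28 to 0.27). In the library labelled day 20, Ifit3 had 50.6 (31.7 to 76.6) CPM in 79 TFC-like cells, of which 5 held 53.2% of the UMIs of the 4 genes. With no upper UMI limit, Ifit3 had 17.9 CPM there.

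Between the TFC-like clusters led by Gdf15 and by Tg, Ifi27l2a had 881 and 413 CPM for the library labelled day 5, and 379 and 316 in the one labelled day 10. Irf7 had 21.3 and 9.76, and 35.4 and 9.71. Isg15 had 26.1 (18.9 to 34.98) and 18.4 (15.4 to 21.8) in the library labelled day 5, with overlapping intervals. Free RNA had 695 and 277 CPM of Ifi27l2a and 49.96 and 27.05 of Irf7 in these libraries, and 76.8 of Isg15 in the one labelled day 5. In that library only Ifi27l2a of the cluster led by Gdf15 lay above free RNA, whose part was not tested. The intervals of Ifi27l2a and of Irf7 lay apart for the library labelled day 5 and overlapped in the one labelled day 10. When the former was clustered by itself, a cluster led by Gdf15 stayed unnamed, because endothelial markers scored close to TFC markers in it.

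Within endothelial-like cells Ifi27l2a differed most between clusters. In the library labelled day 5 it had 31.5 CPM in the cluster led by Esm1, 58.4 in that led by Gpihbp1, 194 in that led by Vwf and 361 in that led by Gkn3. Each of these lay below the 695 CPM of free RNA in that library, whose part was not tested. In the same order Isg15 had 280.2, 227, 236 and 339.8, and Bst2 had 1107, 1063, 1119 and 887. The order of libraries for Irf7 held in both large clusters, with 167, 68.4, 166 and 48.5 in that led by Gpihbp1 and 177, 51.9, 130.1 and 45.5 in that led by Esm1. Among fibroblast-like clusters of the library labelled day 5, Ifi27l2a had 3494 CPM in that led by Pi16, 2021 in that led by Dpep1 and 1216 in that led by Mfap4, while Isg15 had 71.4, 164 and 121. The cluster led by Pi16 was thus the highest of the 3 for Ifi27l2a and the lowest for Isg15.

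Isg15 and Ifit3 were next compared within single cells. At 1000 UMIs per cell, 13.3% (11.1 to 15.7) of the 897 endothelial-like cells with an Isg15 UMI also held an Ifit3 UMI, against 5.23% (4.59 to 5.93) of the 4396 without one. In fibroblast-like cells the shares were 17.6% of 210 and 2.67% of 2320, in macrophage-like cells led by Pf4 14.1% of 85 and 2.48% of 1007, and in Schwann-like cells 21.7% of 46 and 6.90% of 261. In macrophage-like cells led by Ccl4 they were 1.75% of 57 and 2.58% of 737, with overlapping intervals, and at 2000 UMIs 10.8% (5.51 to 18.5) of 102 and 3.96% (2.55 to 5.84) of 606, still overlapping. In natural killer-like cells 0 of 117 with Isg15 held Ifit3 at this depth, and in TFC-like cells 0 of 27, which allows up to 3.10% and 12.8% by the exact interval. At 2000 UMIs per cell it was 12 of 172 natural killer-like cells (6.98%, 3.66 to 11.9) against 0.915% of those without Isg15, and 4 of 41 TFC-like cells (9.76%, 2.72 to 23.1) against 1.36%. By library, endothelial-like cells had 15.4% of 688 against 6.21% in the one labelled day 5, 3.85% of 104 against 3.51% in the one labelled day 10, 13.3% of 60 against 5.26% in the one labelled day 20 and 2.22% of 45 against 1.15% in the one labelled day 30. At 1000 UMIs the intervals of the pair overlapped outside the library labelled day 5. At 2000 UMIs they lay apart for the libraries labelled day 10 (15.2% of 151 against 4.23%) and day 20 (23.4% of 77 against 8.6%), and overlapped for that labelled day 30 (5.66% of 53 against 2.25%). Cells of 1 library share its mice and are not replicates, so no test was made.

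**Figure D5:**
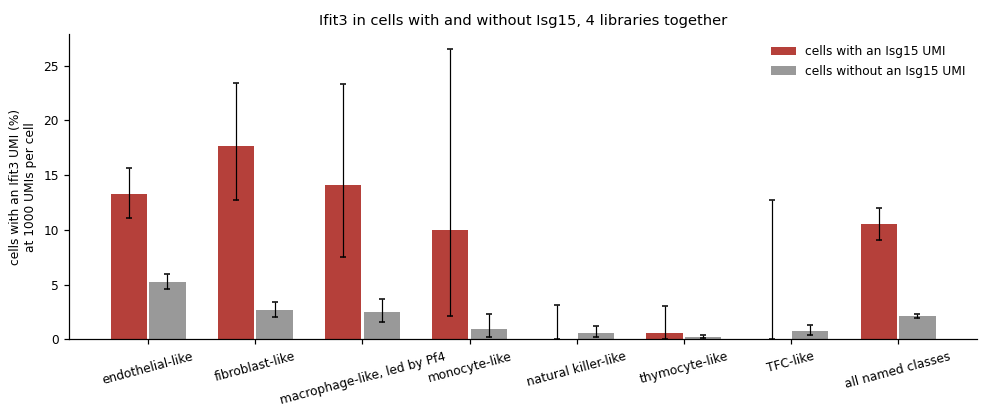
Share of cells with an Ifit3 UMI (vertical axis, percent, from 0) among cells with and without an Isg15 UMI, each cell thinned to 1000 UMIs, 4 libraries together, with exact 95% Clopper-Pearson intervals. The share is higher among cells with Isg15 in endothelial-like (13.3% and 5.23%), fibroblast-like (17.6% and 2.67%) and macrophage-like cells led by Pf4 (14.1% and 2.48%).

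The genes most like the members were ranked by the Pearson correlation of log2 of CPM plus 10 with the summed level of Isg15, Ifit1, Ifit3 and Irf7, over 54 combinations of class and library and 9160 genes. Leaving out members, the 10 highest were Rtp4 (0.80), Oasl2 (0.75), Rnf213 (0.75), Parp14 (0.75), Gbp2 (0.75), Ifih1 (0.72), Nod1 (0.71), Uba7 (0.69), Rsad2 (0.68) and Ptpn12 (0.68). Ifih1 is a sensor of viral RNA, Rsad2 is the antiviral enzyme viperin and Uba7 is the enzyme that activates Isg15. Rsad2 had 307, 379.7, 586 and 269 CPM in endothelial-like cells and 18.7, 4.68, 6.84 and 1.78 in fibroblast-like cells, the latter below free RNA (24.1 to 42.3) in each library. Among the members, Ifit1 with Ifit3 had 0.86 and Isg15 with Ifit1 0.80, while Ifi27l2a with Isg15 had 0.19 and Ifi27 with Irf7 -0.25. The points share libraries and depth, so no p is given.

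Other genes of the pathway were read from lists that do not hold the members. In endothelial-like cells, 4 of 29 other type I response genes, 7 of 16 type II response genes, 4 of 11 antigen processing genes and 0 of 5 receptors were at least 2-fold lower in the library labelled day 30 than in the one labelled day 5, beside 3.09% of all genes. The summed type II list had 1339, 879, 1989.5 and 702 CPM there, with Iigp1, a GTPase induced by interferon gamma, at 401, 242, 797 and 166. The antigen processing list had 8534, 4887, 8407 and 4768 CPM, with H2-K1, a class I antigen-presenting chain, at 1816, 742, 1700.4 and 739. Both sums were higher in the libraries labelled day 5 and 20, as those of Ifit1, Ifit3 and Irf7 were. The immediate-early genes summed to 11580, 7512, 12857 and 6128 CPM in the same cells, and their part in the members' levels was not tested.

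In other classes the lists differed in other ways. In TFC-like cells 1 of 15 other type I genes and 0 of 11 antigen processing genes were at least 2-fold lower in the library labelled day 30, beside 2.44% of all genes, and the summed type I list stayed at 859 to 942 CPM. In macrophage-like cells led by Pf4 it stayed at 4678 to 4855, with Ly6e, a membrane protein of the type I response, at 1287, 976, 1332 and 812. In monocyte-like cells 15 of 34 other type I genes were lower, beside 4.19% of all genes, while Samhd1, an enzyme that depletes nucleotides, had 809.7, 909.5 and 987. In neutrophil-like cells 22 of 30 were lower, beside 20.4% of all genes, and Ifitm2 and Ifitm1, paralogs of Ifitm3, had 2531 and 1779 CPM for the library labelled day 5.

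Of the 5 genes listed as feedback inhibitors, which include the exonuclease gene Isg20, 3 were at least 2-fold lower in endothelial-like cells from the library labelled day 30 than in those of that labelled day 5, beside 3.09% of all genes. Usp18, which removes Isg15 from proteins, had 25.3, 18.01, 26.4 and 16.6 CPM in endothelial-like cells and 3.499, 5.88, 0 and 5.69 in TFC-like cells, beside 3.001 to 6.095 in free RNA. Trim21, an antibody receptor and ubiquitin ligase, had 20.1, 15.1, 13.5 and 7.85 in endothelial-like cells. Socs3 was highest in monocyte-like cells (324, 569 and 427 in the libraries labelled day 5, 10 and 30) and Socs1 in thymocyte-like cells from the library labelled day 20 (538), both of them blockers of Jak signalling. Isg20, an exonuclease that degrades RNA, had 208, 50.9 and 38.9 CPM in neutrophil-like cells from the libraries labelled day 5, 10 and 30, in the same order as Isg15 there.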

How the data were processed

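The authors deposited unnormalized UMI counts, by gene and droplet, for each of the 4 libraries, aligned to mouse mm10 with CellRanger per the labels and methods, together with a list of barcodes called as cells. The submitters' processing notes also name Seurat (3.6.3 and 3.1.4). Listed cells with 200 to 10000 UMIs, at most 10% mitochondrial and at most 5% hemoglobin UMIs were kept. The automatic Scrublet limit (scanpy 1.11.5) marked 0% to 8.71% of cells, under 0.5% in 3 libraries, so the 6% with the highest scores were removed in each library as likely doublets.

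Libraries were integrated with Seurat 5.3.0 and sctransform 0.4.2 in R 4.3.3 on 2933 features without the interferon lists. Seurat also clustered them at resolution 0.9 on 30 components. As an alternative, each library was clustered by itself with the Leiden method (igraph 0.11.9). Clusters were named from fixed markers, by a naming rule settled after the clusters were seen, and clusters that did not meet it stayed unnamed (259 to 1019 cells per library). T-like and macrophage-like cells are given per cluster, a split also made after seeing the data. UMIs were summed per class and library, with no test, since each age has 1 library. Free RNA was read from droplets with 10 to 100 UMIs and was not subtracted. The statistics scripts (Python 3.11.15, scipy 1.17.1) were tested on simulated data.

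The members and lists were chosen with earlier results of these data known. Named were the members, at most 5 genes with the highest level of each list, every interferon gene with a UMI, and the 10 genes most like the members. Alternatives changed the UMI and mitochondrial limits, doublet removal, integration, thinning, free RNA and the denominator. The values of 1 gene of the pathway lists were left out and are not reported here.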

Additional observations from a re-analysis of the deposited data

Results flagged for a closer look

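For 3 members the ratio of the library labelled day 30 over that labelled day 5 went opposite ways in different classes, with counting intervals on either side of 0. Isg15 had a log2 ratio of 0.97 in TFC-like cells and -3.87 in neutrophil-like cells. Irf7 had 1.05 in TFC-like cells and -3.06 in thymocyte-like cells, where 25 and 13 UMIs stood behind it and the summed thymocyte markers differed between the libraries (324 and 4257 CPM). Irf1 had 0.49 in B-like cells and -2.31 in stromal-like cells. Each class has 1 library per age, so the difference was not tested. In TFC-like cells 1 cell held 28 of the 52 UMIs of Isg15, Ifit1, Ifit3 and Irf7 in the library labelled day 30, and without the top cells the ratios of Isg15 and Irf7 were -0.33 and 0.19. With no upper UMI limit, TFC-like cells of that library had 16.4 CPM of Isg15 and 14.1 of Irf7, against 38.4 and 24.2 with it.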

How the results depend on the processing

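No paired analysis was possible because each age has 1 library. Of 2691 levels of single members recomputed, 2450 stayed inside the counting interval of the value reported. Thinning put 107 of 342 outside it and no upper UMI limit 54 of 351. Thinned sums hold fewer UMIs, and their own counting error is not part of that interval. A level of 0 after thinning means no UMI at that depth and not absence. Of 2373 levels of at least 10 CPM, 93 moved past 1.5-fold, with ratios (after adding 1 CPM) from 0.0212, for Irf1 in C cell-like cells thinned to 1000 UMIs (46.1 and 0 CPM, day 5 by label), to 4.18, for Isg15 in B-like cells with libraries clustered alone (10.5 and 47.2, day 5). Of the 93, thinning gave 36, no upper UMI limit 18, leaving out the top cell 12, the mitochondrial limit of 5% 10, clustering alone 9 and doublets kept 8. They fell to 20 in TFC-like, 17 in C cell-like, 13 in stromal-like, 11 in B-like, 9 in macrophage-like (led by Pf4), 7 in monocyte-like, 6 in natural killer-like, 5 in neutrophil-like, 3 in thymocyte-like and 1 each in endothelial-like (Ifit3, day 30, thinned) and fibroblast-like cells (Irf1, day 30, no upper UMI limit). Thinning took Isg15 in monocyte-like cells (day 10) from 175 to 69.8, Ifitm3 in TFC-like cells (day 30) from 171 to 89.4, and Ifit1 in macrophage-like cells (day 20) from 29.8 to 0. Keeping doublets took Ifitm3 in natural killer-like cells (day 5) from 109 to 379. A further 3 alternatives were chosen after seeing the data: leaving out barcodes listed in more than 1 library, leaving out the cell with the most UMIs of Isg15, Ifit1, Ifit3 and Irf7, and comparing the libraries labelled day 10 and day 20 in place of day 30 and day 5.

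For that last pair the number of members at least 2-fold lower was 3 of 9 in endothelial-like cells (2.69% of all genes), 0 in fibroblast-like (1.98%), 1 in macrophage-like (led by Pf4, 2.88%), 0 in natural killer-like (7.74%), 1 in B-like (9.65%) and 0 of 7 in thymocyte-like cells (29.3%). In the same order of classes the number at least 2-fold higher was 0 (2.18%), 0 (2.09%), 1 (2.74%), 1 (10%), 2 (9.15%) and 3 (8.34%). The counts that follow are for the library labelled day 30 against that labelled day 5. Thinned to 1000 UMIs, 4 were lower in fibroblast-like (7.34%) and 3 in stromal-like cells (9.89%), with 2 higher in TFC-like cells (16.5%). With no upper UMI limit 2 were lower (1.37%) and 0 higher (5.54%) in TFC-like cells and 1 was lower in macrophage-like cells (3.46%). With a mitochondrial limit of 5%, 2 were lower in TFC-like (6.22%) and 5 in natural killer-like cells (9.62%), and with doublets kept 6 in the latter (12.2%). In TFC-like cells 2 were higher with libraries clustered alone (6.53%), 3 with free RNA subtracted (6.12%), and 0 without the top cell (5.75%), with 2 lower (2.5%). Without mitochondrial, hemoglobin and Tg UMIs in the denominator 1 was lower in macrophage-like cells (3.33%).

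The summed level of the 4 genes, thinned to 1000 UMIs, was 258.9 CPM in endothelial-like cells (day 30 by label), 306.3, 179.4 and 187.5 in fibroblast-like cells (day 5, 20 and 30), 36.31, 77.27 and 77.92 in TFC-like cells (day 5, 10 and 20), and 209.6, 180.7 and 127.7 in macrophage-like cells (day 10, 20 and 30). With no upper limit it was 159.7 in fibroblast-like cells (day 10), 53.23, 62.38 and 46.51 in TFC-like cells (day 5, 20 and 30) and 227.3 in macrophage-like cells (day 30). With the limit of 5% it was 48.59 in TFC-like cells (day 30) and 314.2 in macrophage-like cells (day 20). Without the top cell it was 119.4 and 130.1 in fibroblast-like cells (day 10 and 30), 34.6 in TFC-like cells (day 30) and 171.1 in macrophage-like cells (day 20). At 2000 UMIs per cell, 20.17% of endothelial-like cells with Isg15 held Ifit3, and 15.83% of all named cells. The causes were not tested. With libraries clustered alone, macrophage-like cells were not split by cluster, so those led by Pf4 gave no value. Thymocyte-like cells gave no ratio of day 30 over day 5 there, nor did C cell-like cells at 1000 or more UMIs or thinned.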
